A study of Mus musculus with 11 samples.

Results

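Interleukin-12 and its relatives are cytokines built from paired subunits, read by paired receptor chains, and 9 of the 25827 genes counted in these libraries encode their parts. The genes were taken by symbol. They comprise 4 receptor chains (Il12rb1, Il12rb2, Il23r and Il27ra), 4 cytokine subunits (Il12a, Il12b, Il23a and Ebi3) and the transcription factor Stat4, and all 9 were present in the gene lists of the 11 libraries. Their unique molecular identifiers (UMIs, 1 per captured transcript) were summed per library and cell class. A level is given as CPM, the UMIs of a gene per 1000000 UMIs of that class in that library.

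Interleukin-12 pairs the products of Il12a and Il12b, and interleukin-23 pairs those of Il23a and Il12b. Both cytokines bind the chain encoded by Il12rb1, which joins the Il12rb2 chain for interleukin-12 and the Il23r chain for interleukin-23. Interleukin-12 signals mainly through STAT4 and drives interferon-γ production in T and natural killer (NK) cells. The Ebi3 product is shared by interleukin-27, which is read by Il27ra with Il6st, and by interleukin-35.

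Nuclei came from the cerebellum and the brainstem of 1 hemisphere, combined with cervical cord, of male mice aged 8 to 12 weeks. All mice carried loxP-flanked alleles of Il12rb2 on both chromosomes (Il12rb2fl/fl, here fl). Littermates with the addition of NestinCre/+ (here NestinCre) express Cre recombinase from the Nestin promoter, which is active in precursors of neurons and of most glia but not of microglia or immune cells. The fl mice carried no Cre. Experimental autoimmune encephalomyelitis (EAE), a model of multiple sclerosis, was induced with 200 µg of a MOG peptide in complete Freund's adjuvant plus pertussis toxin, and tissue was taken at day 10, while naive mice were not immunized. There were 4 fl EAE, 4 NestinCre EAE and 2 fl naive libraries and 1 NestinCre naive library, the last without a replicate. Sequencing run 1 covered EAE replicates 1 to 3 of each genotype, run 2 the EAE replicates numbered 4 together with fl naive 2, and run 3 the remaining naive libraries, fl naive 3 and NestinCre naive 2. Values of a group are listed below in the order of these replicate numbers.

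The libraries held 40761007 to 86063464 UMIs and 13120 to 22951 barcodes each, and 159304 nuclei were kept. Pairs of libraries shared 0.358% to 0.692% of the barcodes of the smaller library. Clusters were named from marker genes, so that a name such as granule cells stands for nuclei that are granule-cell-like, and 7.17% of nuclei stayed unnamed. Immune cells that enter the tissue were counted mostly in the NestinCre EAE group. T or NK cells numbered 2, 3, 6 and 1 nuclei with fl genotype and 22, 17, 37 and 20 with NestinCre, and infiltrating phagocytes 6, 2, 17 and 15 against 134, 78, 95 and 24. In sums over all nuclei, fewer cells of a type and less RNA per cell cannot be told apart.

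Il12rb1 lies on mouse chromosome 8 (71261093 to 71276183, plus strand, GRCm39) and Il12rb2 on chromosome 6 (67268302 to 67353172, minus strand), where Il23r follows 38140 bases further along. The 250 bases before the annotated start of Il12rb2 are shown because it is the targeted gene and had UMIs in each neuronal class. They were searched on both strands for TTCNNNGAA, the letters of STAT-type motifs, and for the letters of interferon response motifs (GAAA, any 2 bases, GAAA), and capitals mark a match. The stretch covers chr6:67353173-67353422 and is written 5′ to 3′ along the gene.
Il12rb2: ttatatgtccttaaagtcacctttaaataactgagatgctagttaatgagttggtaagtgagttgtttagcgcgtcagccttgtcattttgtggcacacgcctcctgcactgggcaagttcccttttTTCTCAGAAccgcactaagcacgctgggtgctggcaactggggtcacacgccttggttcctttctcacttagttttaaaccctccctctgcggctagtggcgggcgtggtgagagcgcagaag
The Il12rb2 stretch held 1 match to TTCNNNGAA, 123 bases before the start, and none to the interferon response motif. The same stretches of Il23r, Il27ra, Il12a, Il12b, Il23a, Ebi3 and Stat4 held neither. Of the 21770 promoters of protein-coding genes of this length, 7.82% held TTCNNNGAA and 3.44% held the interferon response motif. A match is a description of letters and not a binding site.

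The targeted gene was examined first. Il12rb2 encodes the chain that gives the receptor its specificity for interleukin-12, and it was the gene of the list with the most UMIs (7201 in 6095 nuclei). Neurons held 5675 of them. Its level in neurons was 16.3, 19.99, 13.5 and 13.4 CPM across the fl EAE libraries. The NestinCre EAE libraries gave 19.0, 17.02, 17.5 and 9.60 CPM. Without immunization the levels were 15.5 and 16.9 CPM with fl genotype and 15.8 CPM with NestinCre. The groups overlapped throughout, with both the highest and the lowest value among EAE libraries.

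The genotype difference of Il12rb2 in neurons during EAE was -0.05 ± 0.17 on the log2 scale (SE, 4 against 4 libraries, edgeR adjusted p = 0.985), and within run 1 alone it was 0.14. In granule cells the log2 difference was -0.04, in inhibitory neurons -0.13, in molecular layer interneurons 0.07 and in excitatory neurons 0.21, and none of these passed the test. Mature oligodendrocytes had 4.21, 2.83, 3.69 and 1.70 CPM across the fl EAE libraries, against 2.99, 2.57, 1.86 and 2.30 CPM across those of NestinCre EAE, too few UMIs for the fit. The files give 1 count for the whole gene, introns included, and do not show from which exons the reads came, so these levels do not check the deletion of the floxed exons. The 3′ end of Il12rb2 also overlaps Serbp1 on the opposite strand.

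**Figure D1:**
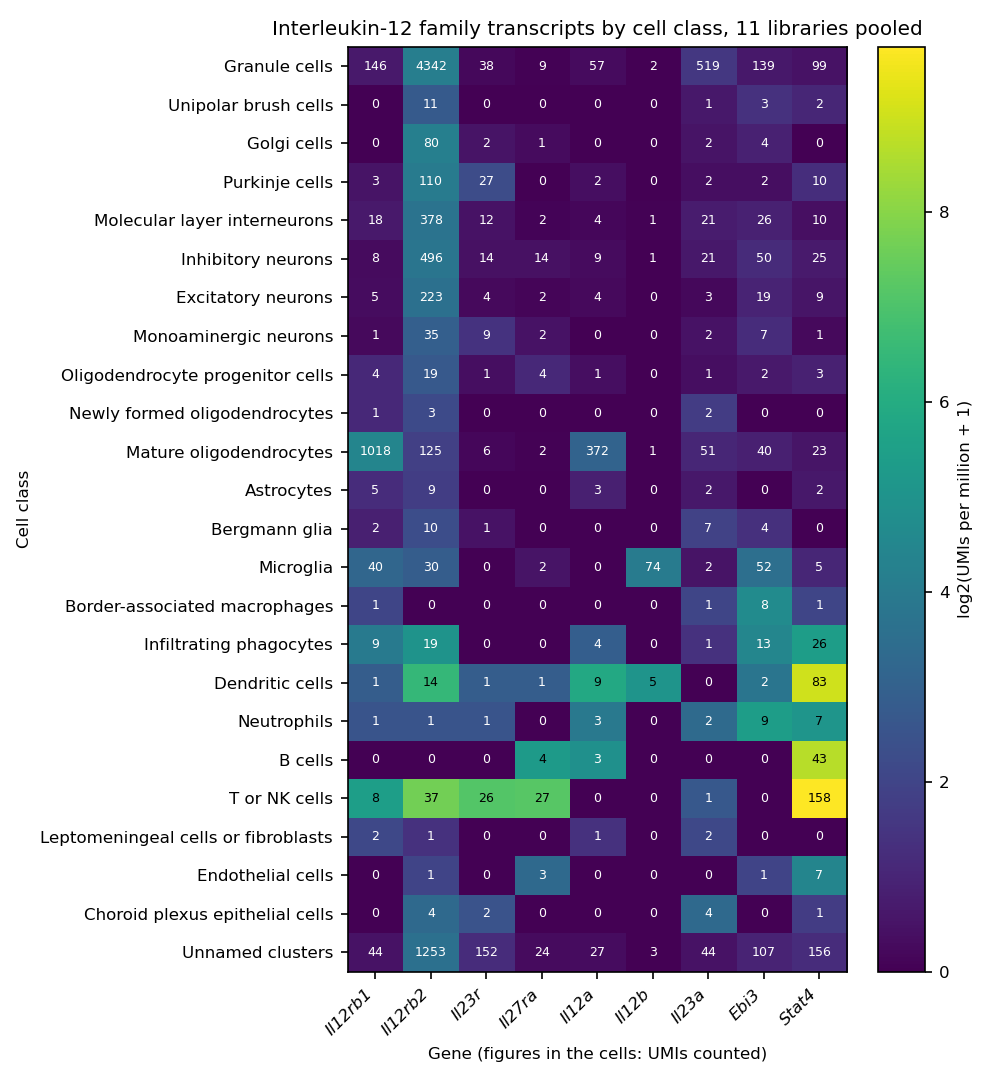
Level of each gene (columns) in each cell class (rows), all 11 libraries pooled, as log2(CPM + 1), with the number of UMIs printed in each cell. Most UMIs of Il12rb1 and Il12a lay in mature oligodendrocytes (1018 and 372 UMIs), while their pooled levels were higher in T or NK cells (43.1 CPM from 8 UMIs) and in dendritic cells (57.0 CPM from 9 UMIs). For Il12rb1 this order rests on 1 library. Without NestinCre EAE 3 T or NK cells were at 15.0 CPM, beside 20.7 CPM in mature oligodendrocytes of all libraries. Il12rb2 stood out in neurons and, from few nuclei, in T or NK cells, dendritic cells and infiltrating phagocytes. Stat4 stood out in T or NK cells, dendritic cells and B cells.

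Among classes with at least 10 nuclei in every library, the mean level of Il12rb2 over the 11 libraries ran from Golgi cells through granule cells, Purkinje cells, inhibitory neurons, molecular layer interneurons and excitatory neurons to monoaminergic neurons. The means were 18.1 ± 5.12, 17.1 ± 3.24, 15.1 ± 6.49, 13.5 ± 3.39, 12.4 ± 2.53, 11.9 ± 3.28 and 7.29 ± 5.68 CPM in that order (SD, n = 11). Golgi and granule cells are the inhibitory and excitatory neurons of the cerebellar granular layer, and Purkinje cells are the output neurons of the cerebellar cortex. No pair of neighbours in this order passed the test, which a lone pair could not pass. Even the smallest p that 11 libraries allow stays above 0.05 after adjustment, as given for Il12rb1 below. Neighbours are also the classes closest in mean level, so this result does not show that their levels are alike. The exact two-sided sign-flip permutation test gave unadjusted p = 0.0264 between excitatory and monoaminergic neurons and adjusted p = 0.571. Next came oligodendrocyte progenitor cells at 6.33 ± 6.31 and microglia at 6.12 ± 2.90 CPM (SD, n = 11). Unipolar brush cells, an excitatory interneuron of the granular layer, followed at 5.29 ± 6.71 CPM from 11 UMIs in all. Bergmann glia were at 3.31 ± 4.38, astrocytes at 2.75 ± 2.56 and mature oligodendrocytes at 2.64 ± 0.843 CPM (SD, n = 11), and leptomeningeal cells or fibroblasts, with 1 UMI, came last.

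Free RNA in droplets gives some UMIs to nuclei that do not make a transcript. Its size was read from markers of the class that held most UMIs of the gene in question. The level of Il12rb2 in mature oligodendrocytes was 15.1% of that in granule cells, while the summed granule cell markers in mature oligodendrocytes were at 17.4% of their granule cell level. In 8 of 11 libraries Il12rb2 was at or below that marker ratio. The Il12rb2 UMIs of mature oligodendrocytes are therefore not above the background measured this way. In microglia the same ratio was 36.8% against 19.9% for the markers, and Il12rb2 was at or below the markers in 2 of 11 libraries.

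In T or NK cells, dendritic cells and infiltrating phagocytes the pooled levels of Il12rb2 were higher than in neurons but rested on few nuclei. T or NK cells, in which this chain is best known, had 37 UMIs in 116 nuclei, or 199.1 CPM (95% Poisson interval 140.2 to 274.5, counting error only). Dendritic cells had 14 UMIs in 82 nuclei, or 88.7 CPM (48.5 to 148.9). Infiltrating phagocytes had 19 UMIs, or 30.6 CPM (18.5 to 47.9). Neutrophils had 1 UMI in 245 nuclei, and B cells and border-associated macrophages had none. No immune class other than microglia had the nuclei needed for a test between groups.

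Il12rb1 encodes the chain shared by the receptors of interleukin-12 and interleukin-23, and its UMIs lay almost wholly elsewhere. Mature oligodendrocytes, the myelinating glia, held 1018 of its 1317 UMIs (77.3%) although they gave 8.98% of all UMIs. Their level ran from 4.35 to 57.8 CPM with a median of 12.3 CPM over the 11 libraries. The mean over the libraries was 20.2 ± 18.8 CPM (SD, n = 11). Among classes with at least 10 nuclei in every library, microglia came next with a mean of 5.41 CPM, and the level in mature oligodendrocytes was higher in 11 of 11 libraries. The exact sign-flip test gave p = 0.000977, the smallest value that 11 libraries allow, which became 0.0635 after adjustment over the 65 pairs of neighbours compared. Oligodendrocyte progenitor cells had 4 UMIs in 885 nuclei, and Golgi and unipolar brush cells had none. Both clusters of mature oligodendrocytes carried it, at 25.6 and 12.1 CPM. Rarer immune cells also had it. T or NK cells were at 43.1 CPM (95% Poisson interval 18.6 to 84.8), from 8 UMIs in 116 nuclei, beside 20.7 CPM (19.5 to 22.1) in mature oligodendrocytes pooled the same way. All 8 lay in NestinCre EAE libraries, in which mature oligodendrocytes were at 24.1 to 57.8 CPM. The pooled values therefore do not rank these classes. Without NestinCre EAE 3, which held 6 of the 8, T or NK cells were at 15.0 CPM. Infiltrating phagocytes had 9 UMIs, or 14.5 CPM (6.64 to 27.6), and 8.01 CPM without NestinCre EAE 1.

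In neurons Il12rb1 was seen at 0.0989 to 1.02 CPM per library. Pooled, this was 2.39% of the level in mature oligodendrocytes, where the markers of mature oligodendrocytes in neurons were at 4.30% of theirs, and the ratio was at or below the markers in 7 of 11 libraries. Pooled over libraries, the UMIs of Il12rb1 in neurons were thus within the measured background, but single libraries differed. In neurons the ratio was below the markers in every NestinCre EAE library, where the level in mature oligodendrocytes was highest. It was above the markers in fl EAE 1, fl EAE 2, fl EAE 4 and NestinCre naive 2, so the pooled value does not stand for every library. In microglia Il12rb1 reached 40.0% of the level in mature oligodendrocytes, against 7.01% for the markers. The ratio was at or below the markers in 7 of 11 libraries, those of fl EAE and naive mice, where it was 0.

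**Figure D2:**
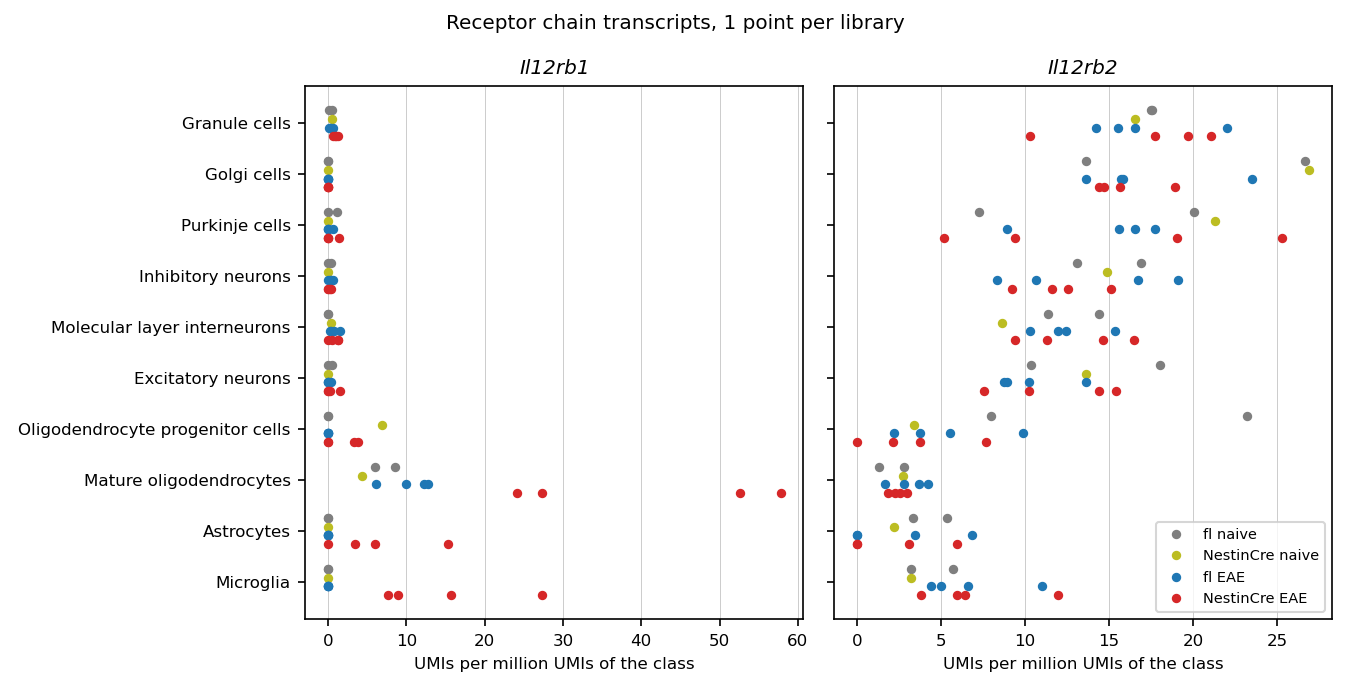
Level of Il12rb1 (left) and Il12rb2 (right) in 10 cell classes in CPM, each point a library and each colour a group. Il12rb1 was high in mature oligodendrocytes, most of all in the 4 NestinCre EAE libraries (24.1 to 57.8), and Il12rb2 was spread over the neuronal classes with the groups mixed.

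Among the single classes, Il12rb1 in mature oligodendrocytes was the 1 combination of the 10 tested whose genotype difference was called. Its level was 6.15, 12.3, 12.7 and 9.91 CPM across the fl EAE libraries, against 57.8, 27.3, 24.1 and 52.6 CPM across those of NestinCre EAE. Every NestinCre EAE library was above every other library, since naive mice gave 5.99 and 8.497 CPM with fl genotype and 4.35 CPM with NestinCre. Il12rb1 rose in NestinCre EAE by a log2 difference of 1.93 ± 0.30 (SE, edgeR adjusted p = 0.00521). In that class 1.47% of the 12083 genes tested were called as higher. The call held within run 1 (log2 difference 1.80, adjusted p = 0.0171) and, in the run 2 pair, the values were 9.91 and 52.6 CPM. Without any 1 of the 8 libraries the log2 difference stayed between 1.59 and 2.10. Within mature oligodendrocyte nuclei the summed level of the 9 infiltrating phagocyte markers also differed, at 7.93 to 18.4 CPM in fl EAE and 20.8 to 172 CPM in NestinCre EAE, while the 7 mature oligodendrocyte markers were at 11703 to 12221 and 11319 to 13103 CPM. The 10 T or NK cell markers were at 2.83 to 7.77 CPM, with Cd3e at 0, and 6.26 to 10.5 CPM. The part of RNA from other cells in the result was not tested.

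Counts of nuclei gave the same direction when nuclei were thinned to a common depth of 1000 UMIs, which left out 204 shallower mature oligodendrocytes of fl EAE and 475 of NestinCre EAE mice. Il12rb1 was then seen in 1.00% ± 0.230 of mature oligodendrocytes of fl EAE mice and in 3.91% ± 1.61 of NestinCre EAE mice (SD, n = 4 each), and the ranges of 0.760% to 1.24% and 2.43% to 5.46% did not overlap. The exact permutation test gave p = 0.0286, the smallest possible with 4 against 4 libraries, and 0.114 after adjustment over 4 tests. Unthinned, the shares were 2.49% and 7.80%. In neurons Il12rb1 was seen in 0.0322% ± 0.0270 of thinned fl EAE nuclei and 0.0971% ± 0.0438 of NestinCre EAE nuclei (exact permutation p = 0.0571, SD, n = 4 each). At 2000 UMIs these shares were 0.0559% and 0.164%, without overlap (exact permutation p = 0.0286, adjusted p = 0.0571). In neurons Il12rb2 was seen in 1.68% ± 0.367 of thinned fl EAE nuclei and 1.69% ± 0.499 of NestinCre EAE nuclei (exact permutation p = 0.971, SD, n = 4 each). Unthinned, these shares were 4.09% and 3.97%, and thinning left out 3268 and 3197 neurons. In mature oligodendrocytes Il12rb2 was seen in 0.248% ± 0.157 of thinned fl EAE nuclei and 0.226% ± 0.0520 of NestinCre EAE nuclei (exact permutation p = 0.8, SD, n = 4 each). Unthinned, these shares were 0.646% and 0.496% (exact permutation p = 0.0571), and at 2000 UMIs they were 0.741% and 0.451% (exact permutation p = 0.0857), so that the difference was larger at these depths without passing the test.

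Microglia, the resident macrophages of the tissue, had 0 UMIs of Il12rb1 in 563 nuclei of the fl EAE group and in the naive libraries. The NestinCre EAE libraries had 27.3, 8.91, 7.61 and 15.7 CPM, from 40 UMIs in 33 of 1082 nuclei. The observed values did not overlap, but those outside NestinCre EAE are counts of 0. Against 3 UMIs over the pooled fl EAE group, the limit that a count of 0 allows, the pooled level in NestinCre EAE microglia was 5.98-fold. This ratio, chosen after the values had been seen, includes no counting error of the NestinCre EAE UMIs and no spread between mice. A 0 in a single fl EAE library allows a higher level than a 0 in the pooled group. The values therefore do not show that every NestinCre EAE library was above every fl EAE library. The gene had too few counts for the edgeR test. The microglia with these UMIs lay mainly in 2 clusters in which 79.0% and 88.9% of nuclei came from NestinCre EAE mice, with 13 and 18 UMIs. The 8 microglial markers in this class were at 4863 to 5846 CPM in fl EAE and lower, at 3653 to 4545 CPM, in NestinCre EAE, without overlap. In microglia the 9 infiltrating phagocyte markers went from 44.0 to 60.4 CPM in fl EAE, where Ly6c2 and F10 were at 0, to 152.9 to 329.2 CPM in NestinCre EAE. The 10 T or NK cell markers were at 4.40 to 16.5 and 0.921 to 9.52 CPM, with Cd3e, Cd3g and Cd4 at 0 in both groups. The part of these shifts in the result was not tested.

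Over all kept nuclei Il12rb1 rose as well, by a log2 difference of 1.99 ± 0.39 (SE, edgeR adjusted p = 0.0298, where 3.12% of 17994 genes were called as higher). Its level was 0.714 to 1.84 CPM in the 4 fl EAE libraries and 2.96 to 6.64 CPM in the 4 NestinCre EAE libraries, without overlap. The call was lost in run 1 alone (edgeR adjusted p = 0.0654), with a replicate block (0.0905), with nuclei of at most 6000 UMIs (0.0580) and without any 1 of 6 of the 8 libraries (0.0560 to 0.105), all but fl EAE 3 and NestinCre EAE 2. The summed infiltrating phagocyte markers were at 5.68 to 18.8 CPM in fl EAE and 19.1 to 172 CPM in NestinCre EAE, and those of T or NK cells, B cells, neutrophils and dendritic cells are given with Stat4 below. In granule cells the log2 difference was 1.47 ± 0.38 (edgeR adjusted p = 0.143) and in all neurons 1.22 ± 0.34 (edgeR adjusted p = 0.219), neither past the threshold. The background above was measured over all neurons and not in granule cells, and its part in these differences was not tested.

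**Figure D3:**
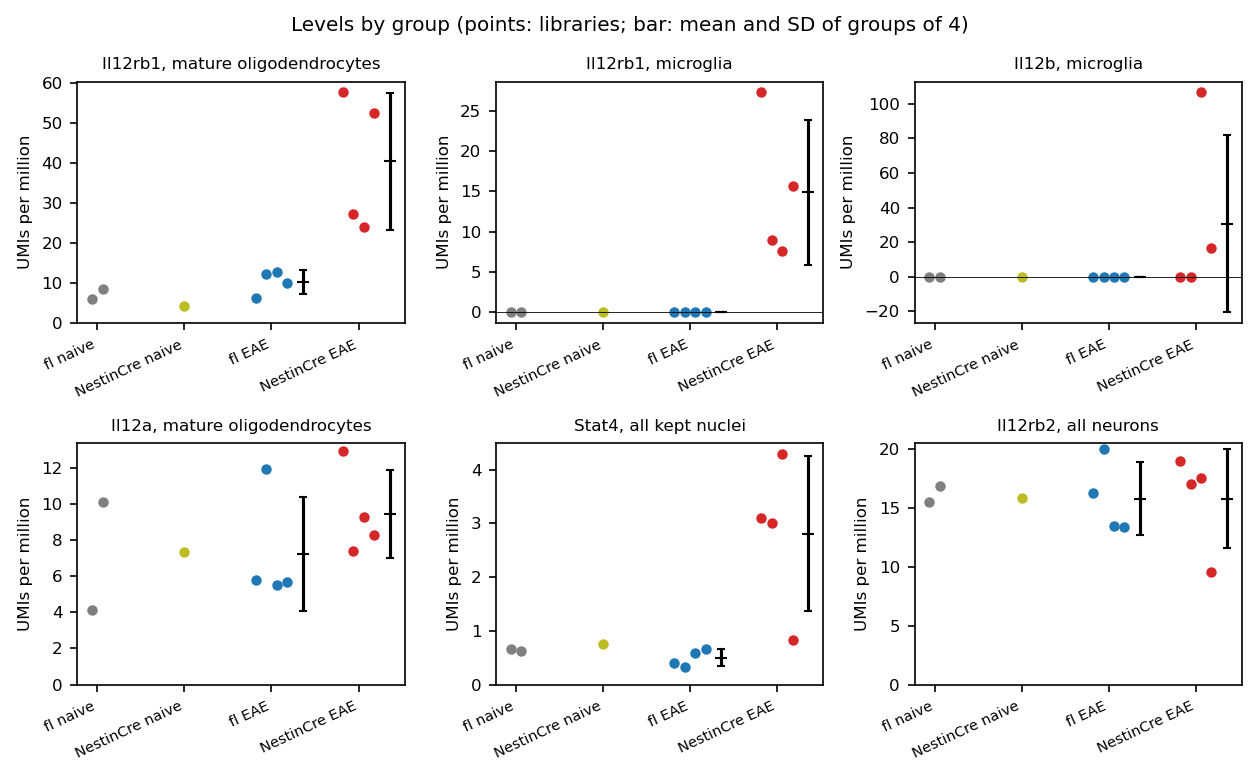
Levels of 6 gene and class pairs by group in CPM, points being libraries and bars the mean ± SD of the groups of 4. Il12rb1 in mature oligodendrocytes was higher in every NestinCre EAE library than in the others. In microglia its count was 0 in each library outside NestinCre EAE, which does not set a low limit for a single library. Il12b in microglia came from 2 nuclei in 2 libraries, and Il12rb2 in neurons overlapped between groups.

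Il23r encodes the chain specific to interleukin-23 and had 296 UMIs in 210 nuclei. Its level was highest in T or NK cells, at 139.9 CPM (95% Poisson interval 91.4 to 205.0), from 26 UMIs in 13 of 116 nuclei. These UMIs lay in 4 libraries, with 48.0, 137.3 and 284.7 CPM in NestinCre EAE 1 to 3 and 1009 CPM in the 3 nuclei of NestinCre naive 2. Without NestinCre EAE 3 the pooled level was 82.6 CPM. Among the named neuronal classes Purkinje cells stood out with 27 UMIs in 489 nuclei, or 3.79 CPM (2.50 to 5.52), seen in 8 of 11 libraries, against 0.148 CPM in granule cells. Of these UMIs 12 came from fl naive 3, and without that library the level was 2.41 CPM. Unnamed clusters held 152 of the UMIs, chiefly 2 clusters led by Tcf7l2, Foxp2, Cntnap5b and Meis2 with 47 and 39 UMIs. Their pooled levels, 7.84 and 4.13 CPM, were above that of Purkinje cells. Microglia, phagocytes and astrocytes had none. Over all kept nuclei the log2 genotype difference in EAE was 0.49 ± 0.22 (SE, edgeR adjusted p = 0.507).

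Il27ra, the receptor chain of interleukin-27, was sparse with 97 UMIs. T or NK cells had 27 of them in 23 nuclei, or 145.3 CPM (95.8 to 211.4), and B cells had 4. Inhibitory neurons held 14 UMIs and granule cells 9. Il27ra overlaps Palm3 on the opposite strand, and it passed the filter on low counts in no class of the EAE comparison.

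The subunits of the cytokines were found in different cells. Il12a, the subunit particular to interleukin-12 and interleukin-35, had 372 of its 499 UMIs in mature oligodendrocytes, at 8.05 ± 2.80 CPM over the 11 libraries (SD), and none in microglia. Neurons were at 2.74% of that level, below the 4.30% of the oligodendrocyte markers, and at or below the markers in 10 of 11 libraries. The level in mature oligodendrocytes was 5.83, 11.95, 5.53 and 5.66 CPM across the fl EAE libraries, against 12.96, 7.40, 9.28 and 8.31 CPM across those of NestinCre EAE. The groups overlapped, since fl EAE 2 lay with the NestinCre EAE libraries, and the log2 difference of 0.43 ± 0.28 did not pass the test (SE, edgeR adjusted p = 0.676). Dendritic cells had 9 UMIs of Il12a in 82 nuclei, or 57.0 CPM (26.1 to 108.3). A lncRNA, Gm66274, is annotated on the opposite strand.

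Il12b encodes the subunit common to interleukin-12 and interleukin-23, and its 87 UMIs lay in only 10 nuclei. A single microglial nucleus of NestinCre EAE 3 held 56 of them and another of NestinCre EAE 4 held 18. These nuclei carried 10 and 9 UMIs of the microglial marker list and 1 and 0 of the dendritic cell list. Both lay in a cluster of 126 nuclei, 88.9% of them from NestinCre EAE mice, whose leading genes included Iigp1, Ly86, Cd274, Gbp5 and Cxcl10. A dendritic cell of NestinCre EAE 1 held 5 UMIs, along with 21 of Stat4, and the other 7 nuclei held 1 or 2 each. No UMI was found in 563 microglia of fl EAE mice, which allows up to 2.64 CPM. NestinCre EAE 1 and 2 were also at 0 in microglia. With values from 2 nuclei the exact permutation test between EAE groups, chosen after the values had been seen, gave p = 0.429.

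Il23a, the subunit particular to interleukin-23, had 519 of its 691 UMIs in granule cells, which gave 75.1% of its UMIs and 47.0% of all UMIs. Its level in granule cells was higher than in mature oligodendrocytes in 11 of 11 libraries (2.05 ± 0.867 against 1.14 ± 0.921 CPM, SD). In granule cells it was 0.825 to 2.53 CPM in fl EAE, 1.03 to 2.38 in NestinCre EAE, 1.17 and 3.48 in fl naive and 3.34 in NestinCre naive libraries. The values fell apart by run, without overlap. The run 2 libraries had 0.825, 1.03 and 1.17 CPM, the run 3 libraries 3.34 and 3.48 CPM and the run 1 libraries 1.76 to 2.53 CPM. The log2 genotype difference within EAE, with run in the fit, was 0.15 ± 0.20 (SE, edgeR adjusted p = 0.943).

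Ebi3, with 488 UMIs in 452 nuclei, was seen in neurons, glia and immune cells. Microglia were at 13.1 ± 7.84 CPM (SD, n = 11), against 0.560 ± 0.191 CPM in granule cells and 1.43 ± 0.884 CPM in inhibitory neurons. Microglia of the fl EAE libraries had 25.2, 5.49, 13.2 and 26.5 CPM, while those of NestinCre EAE had 10.2, 8.91, 5.71 and 3.68 CPM. The groups overlapped, and the gene was too low for the main test in microglia. Neutrophils had 9 UMIs, border-associated macrophages 8 and infiltrating phagocytes 13, at 42.3, 24.6 and 21.0 CPM. The level in neutrophils was 69.6 CPM without NestinCre EAE 1 and 23.9 CPM without NestinCre EAE 3, and that in infiltrating phagocytes 32.0 CPM without NestinCre EAE 1. No UMI was seen in T or NK cells or in astrocytes.

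Stat4 encodes the transcription factor that interleukin-12 activates, and lymphocytes and dendritic cells had the highest levels. T or NK cells held 158 of the 671 UMIs in 79 of 116 nuclei, or 850.4 CPM (722.9 to 993.8). Dendritic cells held 83 UMIs in 14 of 82 nuclei, or 526.0 CPM (419.0 to 652.1), and up to 21 in 1 nucleus. NestinCre EAE 3 gave 47 of these, and without it the level was 339.2 CPM. B cells held 43 UMIs, or 410.9 CPM (297.3 to 553.4). Neurons had 0.427 CPM (0.362 to 0.499) and mature oligodendrocytes 0.469 CPM (0.297 to 0.703). Over all kept nuclei Stat4 was at 0.394, 0.330, 0.587 and 0.666 CPM across the fl EAE libraries and at 3.11, 3.01, 4.30 and 0.8287 CPM across those of NestinCre EAE. The lowest NestinCre EAE value, that of replicate 4 in run 2, was just above the highest of the others, which was 0.754 CPM in NestinCre naive 2.

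Stat4 rose over all kept nuclei by a log2 difference of 2.27 ± 0.48 (SE, edgeR adjusted p = 0.0399), a call that was lost with a replicate block, as given in the last section. The summed level of the 10 T or NK cell markers was 12.7 to 22.3 CPM in fl EAE and 22.3 to 30.7 CPM in NestinCre EAE libraries. These 2 ranges overlapped slightly, at 22.3 CPM. The 6 B cell markers moved with Stat4, from 5.56 to 8.72 CPM to 10.4 to 20.5 CPM. The infiltrating phagocyte list went from 5.68 to 18.8 CPM to 19.1 to 172 CPM, and the 8 neutrophil markers from 21.1 to 24.9 CPM to 27.4 to 133.2 CPM. The 6 dendritic cell markers overlapped widely between the groups, at 118.9 to 141.5 and 126.4 to 136.6 CPM. Nuclei named as dendritic cells nevertheless numbered 1, 0, 5 and 4 in fl EAE and 20, 16, 29 and 5 in NestinCre EAE, with 0, 0, 0 and 2 against 24, 10, 47 and 0 UMIs of Stat4. B cell nuclei numbered 1, 1, 2 and 0 against 12, 21, 39 and 13. Each marker of these 5 lists had UMIs in both groups. Their part in the results for Stat4, and for Il12rb1 over all kept nuclei, was not tested. In neurons the log2 difference was 0.74 ± 0.55 (SE, edgeR adjusted p = 0.906). The call rests on several libraries at once, since the adjusted p was 0.169 without fl EAE 1, 0.153 without fl EAE 2, 0.0965 without fl EAE 3, 0.101 without NestinCre EAE 1, 0.0745 without NestinCre EAE 2 and 0.107 without NestinCre EAE 3.

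**Figure D4:**
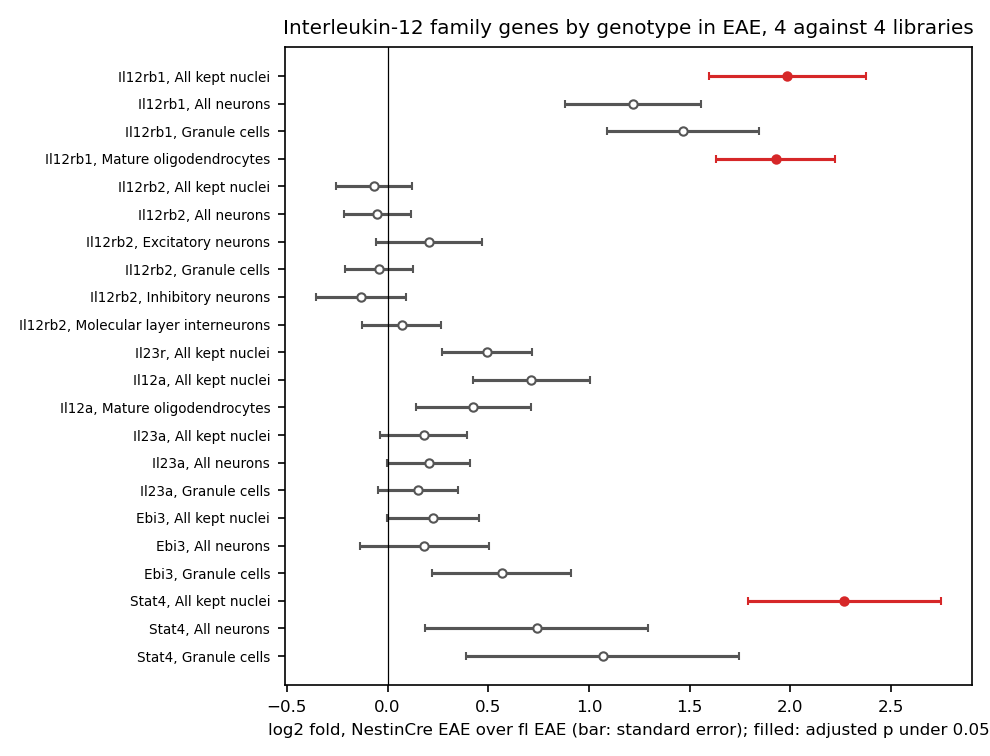
Log2 difference between NestinCre EAE and fl EAE for each gene and class that passed the filter on low counts, with the standard error (4 against 4 libraries). The 3 filled points, Il12rb1 in mature oligodendrocytes and Il12rb1 and Stat4 over all kept nuclei, passed an adjusted p of 0.05 in the main fit, and the Il12rb2 values lay around 0.

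Of 144 combinations of the 9 genes with 16 classes or sums, 22 passed the filter on low counts in the EAE comparison and 3 were called, all as higher in NestinCre EAE. The count was 1 to 4 without 1 library and also moved with the processing, as given in the last section. Over the same classes 1.11% of the tests of all genes were called as higher. The 3 calls are not independent, as most Il12rb1 UMIs of the sum come from mature oligodendrocytes. The other comparisons called none of 31 tested combinations by edgeR, and DESeq2 called none between EAE and naive mice. These were EAE against naive in fl mice, NestinCre against fl in naive mice, and the difference between the genotype effects of both states. The comparisons that use NestinCre naive mice rest on the lone library of that group. With run in the fit it is set against fl naive 3 alone, so a lack of calls says little. Of the tests of all genes 0.0959%, 0.00407% and 0.00174% were called. At an unadjusted p under 0.05 the combinations gave 0, 0 and 2, where 8.27%, 3.69% and 4.59% of the tests of all genes passed. The comparison of EAE with naive mice rests on run 2, the only run with both states, where it has 1 fl naive library. Through the run term it also draws on EAE libraries of run 1 and of both genotypes. For Il12rb1 in mature oligodendrocytes it gave a log2 difference of 1.03 ± 0.57 (SE, edgeR adjusted p = 0.494), and the difference between genotype effects was 2.79 ± 0.81 (edgeR unadjusted p = 0.00438, adjusted p = 0.807).

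A functional interleukin-12 receptor needs both chains in the same cell, so nuclei with a UMI of each were counted. Among 120575 neurons 4884 had a UMI of Il12rb2 and 178 of Il12rb1, and 8 had both (95% Poisson interval 3.45 to 15.8), against 7.24 from the product of both shares within each library. Among 20416 mature oligodendrocytes 884 had a UMI of Il12rb1 and 113 of Il12rb2, and 5 had both (1.62 to 11.7), against 4.82. T or NK cells had 1 such nucleus of 116, against 0.768. Unnamed clusters, whose median of 8089 UMIs per nucleus is above that of granule cells (2133), had 9 (4.12 to 17.1) against 3.87, which lies below the interval. With nuclei of at most 6000 UMIs they had 1 against 0.280. Over all kept nuclei there were 25 against 42.6. In neurons and mature oligodendrocytes the interval held the product of the shares, and at this depth a share of cells with both transcripts could not be measured. After thinning to 1000 UMIs 2 neurons and 2 mature oligodendrocytes had both.

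**Figure D5:**
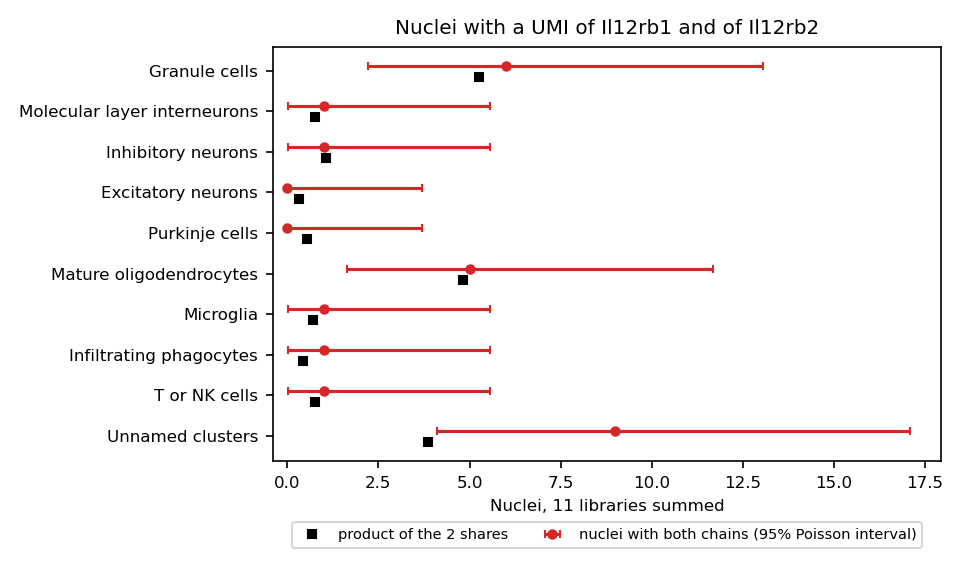
Number of nuclei with at least 1 UMI of Il12rb1 and of Il12rb2 in 10 cell classes, 11 libraries summed, with 95% Poisson intervals, beside the number that the product of both shares gives within each library. In the named classes the observed numbers lay next to the products, and unnamed clusters had 9 nuclei against 3.87.

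Other pairs were counted the same way. Il12rb2 and Stat4 met in 15 T or NK cells against 14.7 from the product, and in 15 neurons (8.395 to 24.7) against 5.90. The neurons mix classes of unlike depth, with medians of 2133 UMIs in granule cells and 11128 in inhibitory neurons, for which the product does not allow. The part of depth in this difference was not tested. Il12rb1 and Il23r, the interleukin-23 receptor, met in 2 T or NK cells against 0.983. Il12a and Il12b, the subunits of interleukin-12, met in no nucleus of the 444 and 10 that held them. With so few nuclei this count cannot show whether the subunits are made in the same cells.

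The pattern over 14 classes was compared with that of 17260 genes by Pearson correlation of log2(CPM + 1), as a description in which the classes share libraries and depth. The genes most like Il12rb1 were Tmem63a (r = 0.965), Stxbp3, Hnrnpdl, U2af1 and Kif13b, all highest in mature oligodendrocytes. Those most like Il12rb2 were Abca7 (r = 0.956), Rnf128, Herc3, Gm43829 and Caln1, highest in Golgi cells, Purkinje cells, molecular layer interneurons or granule cells.

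The other genes of the pathway were followed as a list of 34 partner chains, kinases, STAT factors, inhibitors and genes of the type 1 and type 17 programmes. In the EAE genotype comparison each call was towards NestinCre EAE. Stat3, which interleukin-23 and interleukin-27 also activate, rose in astrocytes (1.22 ± 0.20, adjusted p = 0.000876), mature oligodendrocytes (1.27 ± 0.19, adjusted p = 0.00434) and oligodendrocyte progenitor cells (1.02 ± 0.21, adjusted p = 0.00355), all from edgeR with SE. In astrocytes 0.607% and in oligodendrocyte progenitor cells 0.75% of all genes tested were called as higher.

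Of the inhibitors of cytokine signalling in the list, 1 of 4 tested was called as higher in mature oligodendrocytes, 2 of 5 in microglia and 2 of 7 in granule cells, and none as lower. Socs1 rose in mature oligodendrocytes (log2 difference 3.55 ± 0.47, SE, edgeR adjusted p = 0.00267) and microglia (2.85 ± 0.43, adjusted p = 0.000171), while its difference in granule cells was 1.89 ± 0.39 (adjusted p = 0.0555). Socs3 rose in microglia (1.401 ± 0.34, adjusted p = 0.0120) and in granule cells (2.16 ± 0.32, adjusted p = 0.0205). Ptpn6, a phosphatase, and Il6ra, the interleukin-6 receptor chain, rose in granule cells by 1.88 ± 0.32 (adjusted p = 0.0271) and 1.496 ± 0.28 (adjusted p = 0.0392). The other 4 inhibitors tested were called in no class of this comparison. Of the genes called in granule cells, Socs3, Ptpn6 and Il6ra had pooled levels of 0.954, 0.913 and 0.922 CPM in neurons. Their highest class levels were 216.2 CPM (Socs3) and 173.9 CPM (Ptpn6) in neutrophils and 496.8 CPM (Il6ra) in infiltrating phagocytes. In granule cell nuclei the summed infiltrating phagocyte markers were at 6.39 to 24.1 CPM in fl EAE and 22.7 to 163.5 CPM in NestinCre EAE, the neutrophil markers at 15.7 to 20.3 and 20.2 to 97.5 CPM and the T or NK cell markers at 6.51 to 8.26 and 8.61 to 11.8 CPM. The part of RNA from other cells in these rises was not tested. In mature oligodendrocytes 3 of 14 tested genes of the list were called, with a list median of 0.0064 on the log2 scale beside 0.0072 over all genes tested and 1.47% of genes called as higher. In microglia 3 of 15 were called, with a median of 0.38 beside -0.028, and 4.43% of all 7177 genes tested there were called as higher. In granule cells 3 of 22 were called, with a median of 0.20 beside -0.0057 and 1.29% of all genes called as higher. In molecular layer interneurons, Purkinje, Golgi and unipolar brush cells none of 12, 8, 8 and 6 tested was called, with 3, 0, 1 and 1 at an unadjusted p under 0.05 (edgeR). Of all genes tested in these classes 21, 0, 4 and 0 were called. At the unadjusted threshold 837 of 11482, 304 of 6005, 347 of 5672 and 141 of 3086 passed.

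Over all kept nuclei 7 of 25 tested genes of the list were called, among them Il18rap (3.39 ± 0.45) and Il18r1 (2.63 ± 0.41), which encode the chains of the interleukin-18 receptor. The pooled level of Il18rap was highest in neutrophils (390.1 CPM from 83 UMIs) and that of Il18r1 in T or NK cells (462.9 CPM from 86 UMIs). Neutrophil nuclei numbered 4, 2, 3 and 8 in fl EAE and 123, 47, 54 and 3 in NestinCre EAE. Beside these calls, 3.12% of all 17994 genes tested were called as higher. The summed T or NK cell, B cell, neutrophil and infiltrating phagocyte markers had the ranges given above for Stat4. The part of these cells in the calls was not tested. None of the 34 genes was called by edgeR in any class in the other comparisons, where over all kept nuclei 0 (EAE against naive), 0 (genotype in naive mice) and 9 (difference of genotype effects) of 30 tested had an unadjusted p under 0.05. Among all genes these shares were 12.2%, 3.04% and 5.01%.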

How the data were processed

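Counts of UMIs per gene and nucleus were deposited by the authors, who sorted nuclei by Hoechst, prepared 10x 3′ libraries and counted exonic and intronic reads against GRCm39 with Cell Ranger. Version 6.0.2 is given in the submitters' processing notes and in the file headers of runs 2 and 3, and 7.0.0 in the headers of run 1.

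Nuclei with at least 200 (run 1) or 500 genes (runs 2 and 3) and under 5% mitochondrial UMIs were retained. Doublets were marked per library with the Scrublet of scanpy 1.11.5 (0.8% per 1000 barcodes), and clusters with over 40% doublets were removed. Nuclei were clustered (Leiden, on principal components corrected per library by a numpy implementation of Harmony, 3000 variable genes without the genes studied and their pathway) and named from fixed marker lists. The naming rule was settled after several versions had been compared on the clusters' markers, and other naming was not tried. The genes and lists were chosen with earlier results of these data known. The 9 genes were named throughout, pathway genes where called apart from 1 that is not reported here, and the 5 genes most similar to each interleukin-12 receptor chain.

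UMIs were summed per library and class and tested with the quasi-likelihood test of edgeR 4.0.16 (TMM, filterByExpr, run as covariate, Benjamini-Hochberg over all genes of a class), for classes with at least 10 nuclei in every library. The study describes the EAE samples by number of mice, a library was taken as 1 mouse, and nuclei were not treated as replicates. The lone NestinCre naive library was assumed to vary like the others. On simulated counts in which 200 genes were changed, 66% of 2-fold and 99% of 4-fold changes were called among 16962 genes in neurons, and 66.5% and 93% among 12083 in mature oligodendrocytes. The simulation gave every gene the same fixed dispersion, not estimated from these data, and no run effect. Its changed genes were drawn at random, so these shares need not hold for genes of few counts. Exact tests permuted libraries, and Poisson intervals cover counting error only. Alternatives were DESeq2 1.42.0, RLE factors, no filter, other nuclei, run 1 alone, a replicate block and leaving out each library.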

Additional observations from a re-analysis of the deposited data

Results flagged for a closer look

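In 4 of 44 groups of 4 EAE libraries 1 library lay apart from the other 3 by more than Dixon's 95% limit, which chance passes in about 1 of 20 groups. Il12a in mature oligodendrocytes was 11.95 CPM in fl EAE 2 and 5.53 to 5.83 CPM in the other fl EAE libraries. Il23r over all kept nuclei was 0.9274 CPM in NestinCre EAE 3 and 0.582 to 0.626 CPM in the others of its group. In neurons of fl EAE 4, the fl EAE library of run 2, Ebi3 was 0.3147 CPM against 0.707 to 0.779 CPM, and Stat4 was 0.531 CPM against 0.185 to 0.240 CPM.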

How the results depend on the processing

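The rise of Il12rb1 in mature oligodendrocytes kept its direction and its call under each alternative run, with adjusted p at most 0.0247. The count of 3 called combinations of gene and class was 5 with every gene of at least 1 count, the added calls being Il12b and Il12rb1 in microglia, which had 0 UMIs in fl EAE and so give no support, 1 with a replicate block, and 1 to 4 without 1 library. Over all kept nuclei the correlations of same-numbered libraries of run 1 were -0.0633, 0.230 and 0.238, and those of different-numbered libraries -0.262 to 0.0951. In granule cells the same-numbered values were -0.0614, -0.0131 and -0.118, and in mature oligodendrocytes -0.105, 0.119 and 0.0084. These values do not settle whether the replicate numbers pair the libraries. With the replicate block the adjusted p over all kept nuclei was 0.0905 for Il12rb1 and 0.0948 for Stat4, and that of Il12rb1 in mature oligodendrocytes 0.0128. Over all kept nuclei the adjusted p of Il12rb1 was also 0.0654 in run 1 alone and 0.0580 with nuclei of at most 6000 UMIs, a limit named in the study's methods. Without 1 library the log2 difference was 1.63 to 2.33 for Il12rb1 and 2.00 to 2.98 for Stat4 over all kept nuclei. Il12rb2 in neurons, at -0.05, was 0.143 in run 1 alone and -0.183 to 0.143 without 1 library, being positive without fl EAE 2 (0.022), fl EAE 4 (0.142) or NestinCre EAE 4 (0.143). The difference in its thinned share, 0.0103 percentage points in neurons, was -0.119 without thinning, 0.248 at 2000 UMIs and -0.181 to 0.225 without 1 library, being negative without fl EAE 1 (-0.0695), fl EAE 4 (-0.0928), NestinCre EAE 1 (-0.181) or NestinCre EAE 3 (-0.0096). In mature oligodendrocytes it was -0.0219, -0.150 without thinning, -0.290 at 2000 UMIs, and -0.0805 to 0.043 without 1 library, positive without fl EAE 3 (0.043) or NestinCre EAE 4 (0.0010). Of 65 neighbouring pairs of classes 0 passed, and 2 with nuclei of at most 6000 UMIs, where Il12rb1 in mature oligodendrocytes against microglia had adjusted p = 0.0234 by the exact sign-flip permutation test. In the main setting a lone pair could not pass, whatever its levels. Nuclei with both chains numbered 2 in neurons and 7 in all after thinning, and 13 in all with nuclei of at most 6000 UMIs. The causes were not tested. The comparison of EAE with naive mice was not run without fl naive 2 or fl naive 3, as the fit over 4 groups with a run term is then not of full rank. With at most 6000 UMIs, classes with under 10 nuclei in a library were not fitted. Low counts limit Il27ra, Il12b and Il23r in most classes.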
